A study of Ovis aries with 6 samples.

Results

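The 9 genes described here act at the surface of endothelial cells, where clotting is started, held back and undone. They were taken by symbol from a count table of 18865 genes: tissue factor (F3), its inhibitors (TFPI and TFPI2), the receptors that switch on protein C (THBD and PROCR), urokinase with its receptor and a plasminogen co-receptor (PLAU, PLAUR and ANXA2), and a protease inhibitor (SERPINE2). A row was matched for each of the 9 symbols, and each of the 9 also passed the filter on low counts, which kept 14326 genes for testing. The table comes from sheep valve endothelial cells (VECs) in culture, taken from the surface lining of the mitral valve. Cultures received plasma for 24 h, either post-MI plasma, from sheep after myocardial infarction (3 libraries), or naive plasma (3 libraries), and polyadenylated RNA was sequenced. The study's title names the Wnt inhibitor sFRP3 and endothelial-to-mesenchymal transition, and the comparison of plasmas asked what infarct plasma does to VEC gene expression. It is not stated in the labels whether each library had its own culture, cell donor or plasma donor, nor how long after infarction plasma was drawn. Spread between libraries may therefore be technical.

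As background, tissue factor is the membrane receptor for factor VII and starts the extrinsic clotting pathway. Resting endothelium carries little of it and instead displays thrombomodulin, which turns thrombin from a clotting enzyme into an activator of protein C, helped by the endothelial protein C receptor. Urokinase and tissue plasminogen activator convert plasminogen to plasmin, the enzyme that dissolves fibrin and also takes part in matrix breakdown, and serpins hold these activators in check.

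Among the 9 genes, SERPINE2 was the one whose levels in the 2 groups did not overlap. Its level was lower in every post-MI library than in every naive library. Of all genes tested, 16.1% did not overlap, and 7.82% were lower without overlap. The log2 fold change of SERPINE2 (post-MI minus naive) was -0.66 ± 0.14 (SE). The quasi-likelihood test of edgeR, adjusted over all genes by Benjamini-Hochberg, gave it an adjusted p of 0.354. THBD and PLAUR had larger log2 fold changes, 1.11 and -1.02, but their groups overlapped, and without naive replicate 1 the values were 0.64 and 0.10. TFPI, PLAU and ANXA2 had log2 fold changes between 0.00 and 0.12. In edgeR 0 of the 9, and 0% of all genes tested, passed at an adjusted p of 0.05, while 1244 genes, or 8.68%, had an unadjusted p under 0.05. limma-voom also called 0 genes, and the DESeq2 Wald test called 152 genes higher and 66 lower, together 1.52% of those tested, of which 1 was a member (SERPINE2).

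Total counts ran from 14858472 to 18747848 in the post-MI and from 17446474 to 20672794 in the naive libraries. Levels are given in counts scaled to the library total (CPM, the usual per-million unit) after TMM scaling, and since no transcript lengths were used they are compared between libraries and not between genes. Naive replicate 1 stood apart from the other libraries: on the first principal component it lay at -52.3, against 12.6 to 18.5 for the post-MI libraries and -0.50 and 4.06 for the other naive libraries. By a margin of over 2 in log2 CPM, that library exceeded all the others in 66 genes and lay below them in 138. For post-MI replicate 3 the numbers were 40 and 0. Endothelial markers fixed for the check (12 genes, among them PECAM1, CDH5 and ERG) were detected in each library, and summed to 3210 to 4400 CPM with post-MI and 2919 to 3680 CPM with naive plasma. Their log2 fold changes were positive for 8 and negative for 4, and 0 passed in edgeR. At an unadjusted edgeR p under 0.05 there were 3 (ROBO4, EGFL7 and VWF), each higher with post-MI plasma, where 4.61% of all genes tested were. Smooth muscle and interstitial cell markers were detected as well. The 5 smooth muscle markers summed to 4390 to 6055 CPM with post-MI plasma and 844 to 4881 CPM with naive plasma, with naive replicate 1 at the low end. Log2 fold changes were positive for each of the 5 (47.9% of all genes tested), and 0 passed in edgeR. TAGLN was higher with post-MI plasma without overlap, as were 8.32% of all genes tested. The 8 fibroblast and valve interstitial markers summed to 14168 to 18777 CPM with post-MI and 11056 to 20688 CPM with naive plasma. Here log2 fold changes were positive for 2 and negative for 6, and 0 passed in edgeR. POSTN was lower with post-MI plasma without overlap, as were 7.82% of all genes tested. Bulk RNA cannot tell fewer cells of a type from less RNA per cell.

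**Figure D1:**
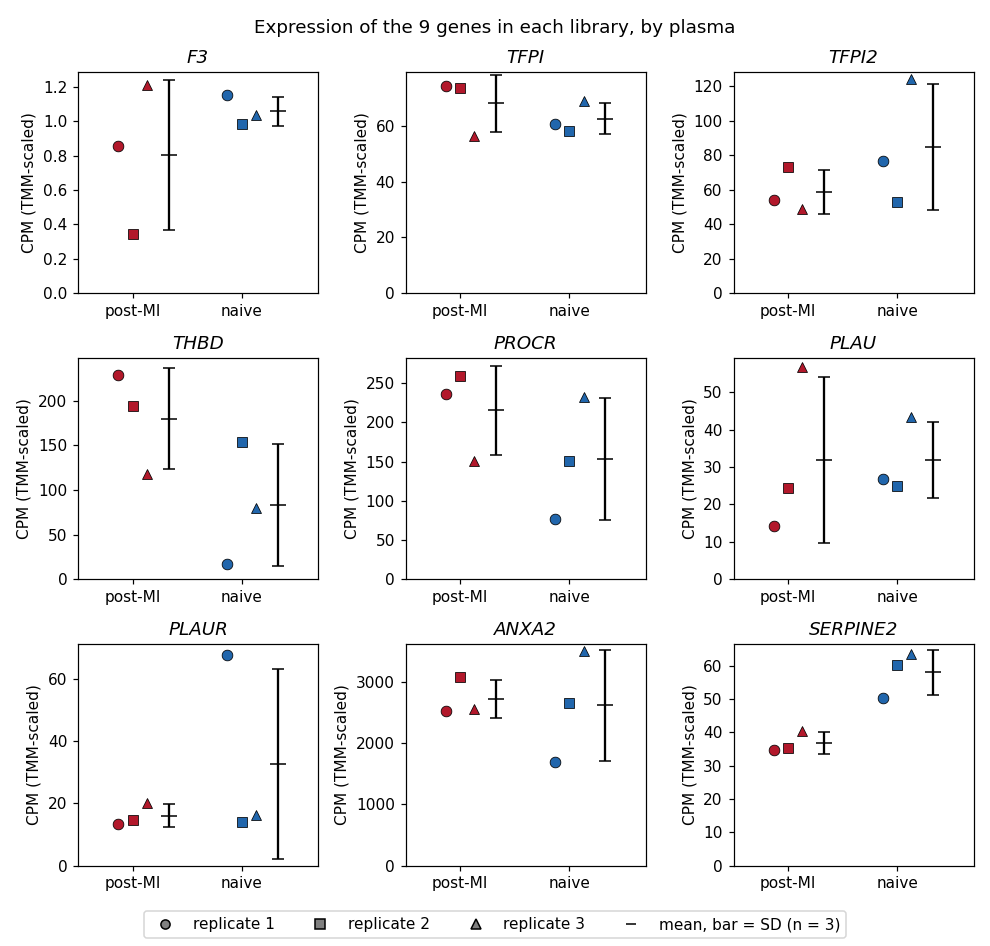
Level of each of the 9 genes in each library in CPM on a linear axis from 0, post-MI plasma in red on the left and naive plasma in blue on the right, with the replicate number as marker shape and the mean ± SD (n = 3) beside each group. SERPINE2 is the panel without overlap, at 34.6 to 40.5 CPM with post-MI and 50.4 to 63.4 CPM with naive plasma, while naive replicate 1 is low for THBD and PROCR and high for PLAUR.

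Tissue factor was near the limit of detection in both groups. F3 had 16, 5 and 21 counts in post-MI replicates 1, 2 and 3, and 23, 17 and 22 counts in naive replicates 1, 2 and 3. In CPM these were 0.858, 0.342 and 1.21 with post-MI plasma and 1.15, 0.984 and 1.03 with naive plasma. Post-MI replicate 2 was the low library, and post-MI replicate 3 was the highest of the 6, so the groups overlapped. The exact 95% Poisson interval of post-MI replicate 2, 0.111 to 0.797 CPM, overlapped the interval of each other library, the highest of which began at 0.750 CPM in post-MI replicate 3. Such intervals cover the error of counting reads and no other variation between libraries. Reads that carry no molecular identifier cannot be counted as separate molecules, so the intervals may be too narrow. The log2 fold change was -0.38 ± 0.47 (SE; edgeR adjusted p = 0.813), with a 95% interval from -1.50 to 0.74. With these libraries neither a loss to less than 0.5 of the naive level nor a gain of 1.5-fold could be told from no change. Without post-MI replicate 2 the log2 fold change was -0.03.

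TFPI encodes the Kunitz-type inhibitor that shuts off the complex of tissue factor and factor VIIa, and it was the steadiest member after SERPINE2. Post-MI replicates 1, 2 and 3 had 74.3, 73.8 and 56.3 CPM, and naive replicates 1, 2 and 3 had 60.9, 58.1 and 69.1 CPM. Post-MI replicate 3 was the lowest library and the other post-MI libraries were the highest. On the log2 scale the groups differed by 0.12 ± 0.16 (SE; edgeR adjusted p = 0.821), with a 95% interval from -0.25 to 0.49. After SERPINE2 this was the narrowest interval of the 9. Without post-MI replicate 3 the value was 0.24 and the groups did not overlap, as for 32.0% of all genes tested in that fit.

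TFPI2 encodes a related Kunitz inhibitor that is deposited in the matrix and blocks plasmin and several other proteases, with little action on tissue factor itself. Its level was 53.8, 73.5 and 48.8 CPM in post-MI replicates 1, 2 and 3, against 76.8, 52.9 and 125 CPM in naive replicates 1, 2 and 3. Naive replicate 3 was the highest library, and naive replicate 2 lay inside the post-MI range. In log2 terms the difference was -0.53 ± 0.32 (SE; edgeR adjusted p = 0.623). It was -0.14 without naive replicate 3 and -0.78 without naive replicate 2, when the groups no longer overlapped, as for 30.0% of all genes tested in that fit.

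THBD encodes thrombomodulin and varied more than any other member. It had 228, 194 and 117 CPM in post-MI replicates 1, 2 and 3, and 17.2, 153 and 79.6 CPM in naive replicates 1, 2 and 3. The means were 180 ± 56.7 CPM with post-MI and 83.3 ± 68.1 CPM with naive plasma (SD, n = 3 each). Naive replicate 1 was far below the other 5 libraries, and post-MI replicate 3 lay below naive replicate 2, so the groups overlapped. The highest library was 13.3 times the lowest, and the SD within groups was 1.20 on the log2 scale, larger than in 98.0% of the genes tested. The log2 fold change was 1.11 ± 0.68 (SE; edgeR adjusted p = 0.626), and its 95% interval ran from -0.49 to 2.71. Without naive replicate 1 it was 0.64, and without naive replicate 2 it was 1.89, with no overlap (30.0% of all genes tested did not overlap in that fit). DESeq2 called THBD in the fit without naive replicate 2 (adjusted p = 0.0465) and in no other DESeq2 fit made.

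PROCR encodes the endothelial protein C receptor, which presents protein C to the complex of thrombin and thrombomodulin. Post-MI replicates 1, 2 and 3 had 236, 258 and 151 CPM, against 77.2, 151 and 232 CPM in naive replicates 1, 2 and 3. As with THBD, naive replicate 1 was the lowest library and post-MI replicate 3 the lowest of its group, but naive replicate 3 was here close to the upper post-MI libraries. In edgeR the log2 fold change was 0.49 ± 0.40 (SE; edgeR adjusted p = 0.705). It was 0.18 without naive replicate 1 and 0.92 without naive replicate 3.

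KLF2 and KLF4 are endothelial transcription factors known to raise THBD expression, and their log2 fold changes had the opposite sign to that of THBD. KLF2 was at 4.93, 7.58 and 8.77 CPM with post-MI plasma and 24.1, 11.6 and 30.9 CPM with naive plasma in replicates 1, 2 and 3, without overlap, and its log2 fold change was -1.65 ± 0.39 (SE; edgeR adjusted p = 0.363). DESeq2 called KLF2 lower (adjusted p = 0.00647), but not without post-MI replicate 1 (0.180), post-MI replicate 2 (0.0840) or naive replicate 3 (0.0903). KLF4 gave -1.36 ± 0.48 (SE; edgeR adjusted p = 0.558), also without overlap, as lower levels were in 7.82% of all genes tested. DESeq2 called KLF4 only in the fit without naive replicate 3 (adjusted p = 0.0415). EGR1, an early factor known to act on the F3 promoter in human cells, was at 27.0, 21.1 and 38.3 CPM in post-MI replicates 1, 2 and 3 and at 13.6, 50.9 and 66.7 CPM in naive replicates 1, 2 and 3. Its log2 fold change was -0.60 ± 0.53 (SE), and it was -0.16 without naive replicate 3 and -1.02 without naive replicate 1, where DESeq2 called it lower (adjusted p = 0.0267). Of the 9 transcription factors listed for F3 and THBD, 0 passed in edgeR, 2 had an unadjusted p under 0.05 (both lower, against 4.08% of all genes tested), and the median log2 fold change was -0.23, against -0.01 over all genes tested.

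PLAU encodes urokinase, the plasminogen activator that works at the cell surface. Its level was 14.1, 24.5 and 56.7 CPM in post-MI replicates 1, 2 and 3, and 26.9, 25.0 and 43.4 CPM in naive replicates 1, 2 and 3. The post-MI libraries held both the lowest and the highest value, and the group means were 31.8 ± 22.2 CPM with post-MI and 31.8 ± 10.1 CPM with naive plasma (SD, n = 3 each). The log2 fold change was 0.00 ± 0.49 (SE; edgeR adjusted p = 1), with a 95% interval from -1.15 to 1.15, which leaves room for a 2-fold change either way. Without post-MI replicate 3 it was -0.72, and both remaining post-MI libraries then lay below the naive ones. Lower levels without overlap were found in 15.9% of all genes tested in that fit.

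PLAUR encodes the urokinase receptor, which holds urokinase at the membrane. It had 13.3, 14.7 and 20.3 CPM in post-MI replicates 1, 2 and 3, and 67.9, 14.0 and 16.1 CPM in naive replicates 1, 2 and 3. Naive replicate 1 was more than 3 times any other library, and the other 5 libraries were mixed between the groups. With all libraries the difference on the log2 scale was -1.02 ± 0.60 (SE; edgeR adjusted p = 0.618), and it became 0.10 ± 0.22 (SE) without that library. The negative sign of PLAUR thus rested on naive replicate 1.

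ANXA2 encodes annexin A2, which with S100A10 forms a cell surface complex that binds plasminogen and tissue plasminogen activator. Post-MI replicates 1, 2 and 3 had 2517, 3085 and 2561 CPM, and naive replicates 1, 2 and 3 had 1691, 2660 and 3497 CPM. The naive group spanned the whole post-MI range. The log2 fold change was 0.06 ± 0.28 (SE; edgeR adjusted p = 0.959), and it was -0.17 without naive replicate 1 and 0.32 without naive replicate 3. Its partner S100A10 had 313, 428 and 464 CPM in post-MI replicates 1, 2 and 3 and 209, 435 and 637 CPM in naive replicates 1, 2 and 3, a spread with the same lowest and highest library as ANXA2. Its log2 fold change was -0.09 ± 0.38 (SE; edgeR adjusted p = 0.954).

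SERPINE2 encodes protease nexin-1, a cell and matrix-bound serpin that inhibits thrombin, urokinase and plasmin. Its level was 34.6, 35.4 and 40.5 CPM in post-MI replicates 1, 2 and 3, and 50.4, 60.4 and 63.4 CPM in naive replicates 1, 2 and 3. Each post-MI library lay below each naive library, and naive replicate 1, which stood apart for other members, was the nearest of its group to the post-MI libraries. The means were 36.8 ± 3.23 CPM with post-MI and 58.1 ± 6.82 CPM with naive plasma (SD, n = 3 each), a fold of 0.634. Non-overlapping lower levels were found in 7.82% of all genes tested. The exact two-sided permutation p on log2 CPM over the 6 libraries was 0.1, the smallest that 3 against 3 allows, and for the other 8 members it was 0.2 to 0.9. By unadjusted p (0.00250) SERPINE2 ranked 100th of the 14326 genes, with 4.08% of the genes lower at an unadjusted p under 0.05.

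The DESeq2 Wald test called SERPINE2 lower with post-MI plasma, at -0.65 ± 0.18 on the log2 scale (SE; adjusted p = 0.0242), where 0.461% of the genes tested were called lower. limma-voom gave an adjusted p of 0.327. The log2 fold change stayed between -0.59 and -0.74 in edgeR with each library left out in turn. The groups remained apart in all 6 of these fits, in which 9.63% to 15.9% of all genes were lower without overlap. Groups that are apart with all libraries stay apart when 1 is left out, unless the scaling shifts, so this adds no support. The DESeq2 call held without post-MI replicate 3 (adjusted p = 0.0216) and without naive replicate 1 (0.000734). It did not hold without post-MI replicate 1 (0.332), post-MI replicate 2 (0.359), naive replicate 2 (0.115) or naive replicate 3 (0.102). Its SD within groups, 0.15 on the log2 scale, was below the median of 0.26 over all genes tested.

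**Figure D2:**
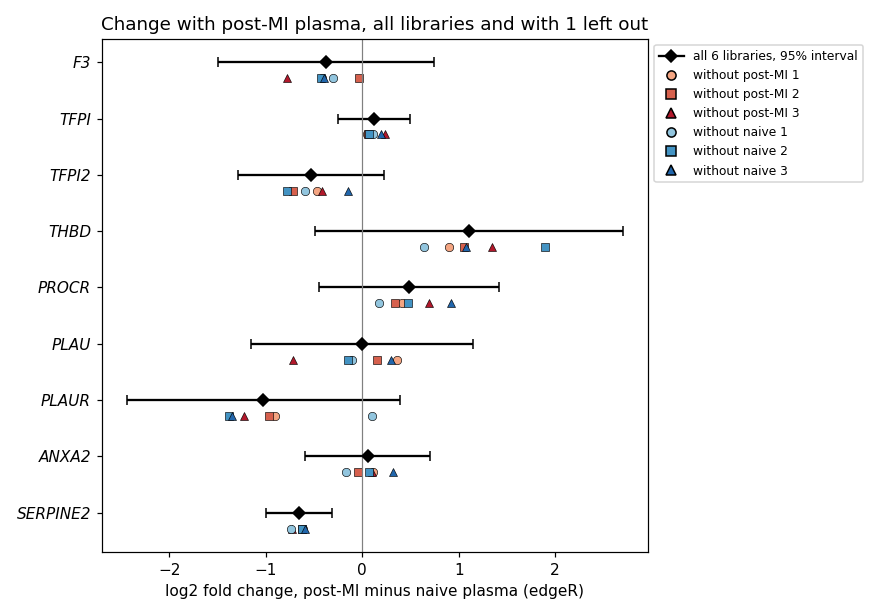
Log2 fold change of each of the 9 genes, post-MI minus naive plasma, from edgeR with all 6 libraries (black diamonds, bars are unadjusted 95% intervals) and, just below, with each library left out (coloured markers). The points of SERPINE2 stay between -0.59 and -0.74, those of THBD spread from 0.64 to 1.89, and PLAUR moves to 0.10 without naive replicate 1.

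Seen by library, the members had their highest and lowest values in different libraries. Naive replicate 1 held the lowest value for 3 of the 9 (THBD, PROCR and ANXA2) and the highest for PLAUR, and naive replicate 3 held the highest for 3 (TFPI2, ANXA2 and SERPINE2). Post-MI replicate 1 held the lowest for PLAU, PLAUR and SERPINE2. Post-MI replicate 3 was the lowest of its group for TFPI, TFPI2, THBD and PROCR, and the highest of its group for F3, PLAU, PLAUR and SERPINE2. With that library left out, 6 of the 9 members did not overlap between the groups (TFPI, THBD and PROCR higher, and F3, PLAU and SERPINE2 lower), where 32.0% of all genes tested did not overlap, and edgeR still called 0. With all 6 libraries 1 of the 9 did not overlap, against 16.1% of all genes. Log2 fold changes were positive for 5 of the 9 members (47.9% of all genes tested) and negative for 4 (52.1%), with a median of 0.00.

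The other genes of clotting and fibrinolysis were read from a list of 30, of which 28 were matched by symbol and 14 passed the count filter. In edgeR 0 of the 14 passed. Log2 fold changes were positive for 8 and negative for 6, and the median was 0.47, against -0.01 over all genes tested. At an unadjusted p under 0.05 there were 3 (F8, GAS6 and VWF), each with a positive value, where 4.61% of the genes were higher at that level. Levels did not overlap for 3 (F8, F2RL2 and GAS6), each higher with post-MI plasma, where 8.32% of all genes were. F2RL2, a further thrombin receptor, averaged 122 ± 19.3 CPM with post-MI and 74.0 ± 50.5 CPM with naive plasma (SD, n = 3 each), with 15.8 CPM in naive replicate 1. DESeq2 called 1 of them higher, F8 (adjusted p = 0.00487), where 1.06% of the genes were called higher. That call was lost without post-MI replicate 1 (0.152) or post-MI replicate 2 (0.193). The 14 matched genes below the filter included the liver-made factors F2, F9, F10, F11 and F12, with at most 7 counts in any library.

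Factor VIII, the cofactor of factor IX that endothelium makes, had 91.8, 109 and 45.6 CPM in post-MI replicates 1, 2 and 3, against 21.5, 25.2 and 38.5 CPM in naive replicates 1, 2 and 3. Its log2 fold change was 1.53 ± 0.36 (SE; edgeR adjusted p = 0.363). VWF, the carrier of factor VIII, gave 1.43 ± 0.49 (SE), with post-MI replicate 3 at 15.4 CPM below naive replicate 2 at 17.8 CPM. DESeq2 gave VWF an adjusted p of 0.115, and called it higher without post-MI replicate 3 (0.00832), without naive replicate 2 (0.0323) and with a block for the replicate number (0.000690). F5, the cofactor of factor X, gave -1.44 ± 0.69 (SE), with 14.2, 10.2 and 21.0 CPM in post-MI replicates 1, 2 and 3 and 89.4, 19.6 and 14.4 CPM in naive replicates 1, 2 and 3. Naive replicate 1 was the highest library for F5, as it was for PLAUR, and without it the value for F5 was -0.16.

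Among the receptors that thrombin and related proteases cleave, F2R, the main thrombin receptor, had 264, 257 and 121 CPM in post-MI replicates 1, 2 and 3, and 35.0, 128 and 130 CPM in naive replicates 1, 2 and 3. On the log2 scale the difference was 1.13 ± 0.52 (SE; edgeR adjusted p = 0.570). F2R resembled THBD in that naive replicate 1 was the lowest library and post-MI replicate 3 the lowest of its group. Without naive replicate 1 the value for F2R was 0.74. F2RL1, a receptor cleaved by trypsin-like proteases and by the complex of tissue factor and factor VIIa, gave 0.43 ± 0.38 (SE), and leaving out post-MI replicate 2 gave 0.06, while leaving out naive replicate 1 gave 0.84. In the protein C pathway, PROS1, which encodes the cofactor protein S, had 225, 213 and 150 CPM in post-MI replicates 1, 2 and 3, against 88.8, 177 and 149 CPM in naive replicates 1, 2 and 3. The difference was 0.50 ± 0.28 on the log2 scale (SE; edgeR adjusted p = 0.604). It was 0.28 when naive replicate 1 was left out. GAS6, a relative of protein S that activates TAM receptors, averaged 336 ± 76.9 CPM with post-MI and 156 ± 71.8 CPM with naive plasma (SD, n = 3 each). Its log2 fold change was 1.10 ± 0.38 (SE; edgeR adjusted p = 0.555), and DESeq2 called it higher only in the fit without naive replicate 2 (adjusted p = 0.0164).

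PLAT encodes tissue plasminogen activator. It had 21.6, 26.2 and 48.6 CPM in post-MI replicates 1, 2 and 3, and 58.8, 41.5 and 55.9 CPM in naive replicates 1, 2 and 3. Post-MI replicate 3 was the highest of its group, as for PLAU, and lay inside the naive range. The log2 fold change was -0.70 ± 0.31 (SE; edgeR adjusted p = 0.566). Without post-MI replicate 3 it was -1.12, and DESeq2 called PLAT lower in that fit (adjusted p = 0.00259). PLGRKT, a plasminogen receptor, gave -0.38 ± 0.21 (SE), and -0.12 without naive replicate 1. Of the 5 tested genes of plasminogen activation on the list, 0 passed, and log2 fold changes were negative for 4, against 52.1% of all genes tested.

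**Figure D3:**
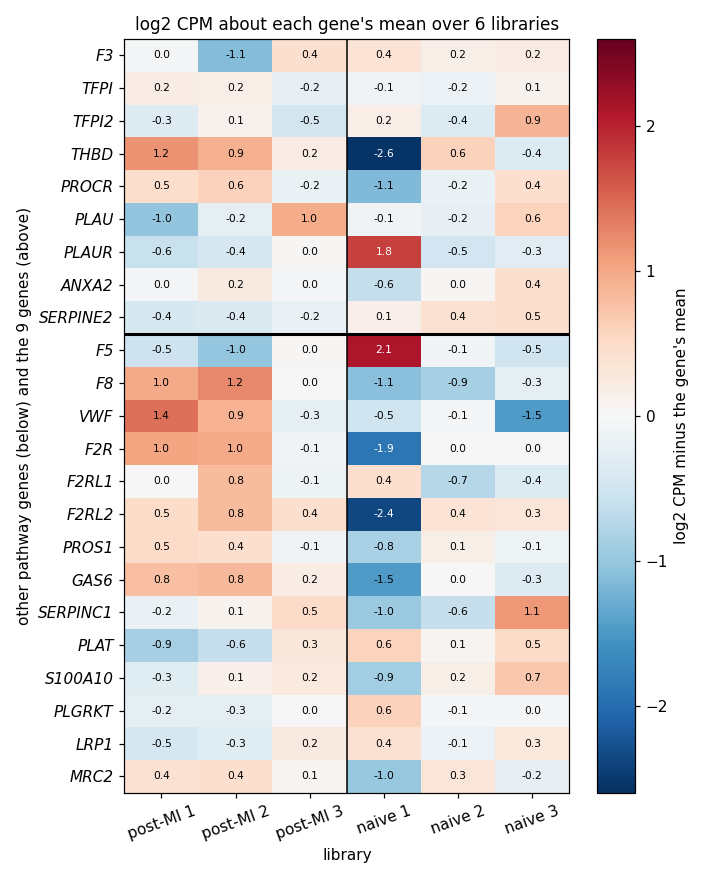
Log2 CPM of each gene minus its mean over the 6 libraries, for the 9 genes (above the thick line) and the 14 other tested genes of clotting and fibrinolysis (below it), with post-MI libraries left of the thin line and naive libraries right of it. Among the 9 genes the darkest cells are those of naive replicate 1, at -2.56 for THBD and 1.77 for PLAUR, and SERPINE2 is negative in each post-MI library and positive in each naive library.

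Monocytes can express F3 and PLAUR, as background, and defining leukocyte and platelet markers were low or at 0 apart from CD14, CD68 and GP1BA. The leukocyte marker PTPRC was at 0.643, 0.820 and 1.33 CPM in post-MI replicates 1, 2 and 3 and 0.200, 0.347 and 0.141 CPM in naive replicates 1, 2 and 3. PTPRC was thus higher with post-MI plasma without overlap, as were 8.32% of all genes tested. Its log2 fold change was 2.01 ± 0.54 (SE; edgeR adjusted p = 0.443), on at most 23 counts in any library. The monocyte markers CSF1R and ITGAM stayed under 1 CPM in each library. The 7 matched leukocyte markers, led by CD14, summed to 34.1 to 40.9 CPM with post-MI and 35.6 to 54.9 CPM with naive plasma, with the top value in naive replicate 1. The platelet chemokine gene PPBP had 0 counts in all 6 libraries, which allows up to 0.202 CPM in the shallowest library, and the 3 matched platelet markers summed to 33.5 to 53.2 CPM with post-MI and 30.3 to 59.6 CPM with naive plasma, mostly from GP1BA. The erythroid gene ALAS2, the matched red cell marker, had 0 counts in each. The summed smooth muscle level was lowest in naive replicate 1, as were THBD and PROCR. Of the 5 smooth muscle markers ACTA2, TAGLN and MYH11 had their lowest level in that library, and CNN1 and ACTG2 in naive replicate 3. Their part in the values of THBD and PROCR was not tested.

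For each member the genes with the most alike pattern were found as those with the smallest root mean square (RMS) difference in log2 CPM about the gene's own mean over the 6 libraries, among 10428 candidates. These are descriptions of 6 points. Nearest to SERPINE2, which had an RMS of 0.35 about its own mean, were CARNMT1, a methyltransferase gene, and NDRG2, at RMS differences of 0.087 and 0.092. THBD, with an RMS of 1.24, was nearest to NCKAP5 and to APLN, which encodes the peptide apelin, at 0.20 and 0.26. APLN had 17.5, 14.6 and 9.93 CPM in post-MI replicates 1, 2 and 3 and 1.85, 12.9 and 9.44 CPM in naive replicates 1, 2 and 3. PLAUR, with an RMS of 0.81, was nearest to JUNB, a subunit of the AP-1 transcription factor, and HIF1A, the oxygen-regulated subunit of hypoxia-inducible factor, at 0.12 and 0.14. HIF1A had 161, 157 and 206 CPM in post-MI replicates 1, 2 and 3 and 760, 185 and 206 CPM in naive replicates 1, 2 and 3, so naive replicate 1 stood out as it did for PLAUR.

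The nearest genes to PROCR were CDHR4 and CDKN2C, at 0.098 and 0.10, and those to ANXA2 were QSOX1, a sulfhydryl oxidase gene, and APPL2, at 0.026 and 0.037. FAM171B lay at 0.20 from PLAU. TFPI was nearest to PAIP2 and AIMP1, both at no more than 0.045, TFPI2 to SHROOM4 and CPNE8, both at 0.18, and F3 to PRPS2 and ABCB9, both at 0.20.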

How the data were processed

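Groups and replicate numbers came from the sample titles, and table columns were matched by name, with 0 columns left over. A stranded mRNA kit and paired 150 bp reads were used, per the labels' protocols. The authors' tools were featureCounts 2.0.0, STAR 2.5.2b, SAMtools 1.9, DESeq2 1.26.0, MultiQC 1.5 and FastQC, with build Oar_v3.1, per the submitters' processing notes. The annotation and strand setting were not given in the sources used here. Raw counts by gene symbol make up the whole-series table that the authors deposited. Their deposited per-sample signal is the same counts over a single factor for each library (100% of non-zero counts within 0.01%), which matched the DESeq2 size factor, so it was used as a check alone.

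In R 4.3.3 genes were kept by filterByExpr of edgeR 4.0.16 (minimum count 10, minimum total count 15), scaled by TMM and tested by the quasi-likelihood test of edgeR, adjusted over all genes by Benjamini-Hochberg at 0.05. SE was taken as the size of the log2 fold change divided by the root of its F statistic, and 95% intervals use the t quantile and are not adjusted. Log2 CPM used a prior count of 2. For a count of 0 the floor was 3 counts in that library. Fits were checked on simulated data.

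The members and lists were chosen with earlier results of these data known. Named genes were the 9 members, up to 8 pathway genes with the smallest edgeR p plus PLAT, S100A10, PROS1, F2R and F2RL1, the factors KLF2, KLF4 and EGR1, and the 2 nearest genes per member among tested genes averaging at least 1 in log2 CPM and with a symbol in the RefSeq gene table of ARS-UI_Ramb_v3.0. Some genes that these rules or lists take in are not reported here. F2RL2, marker genes and genes below the filter were named after their values were seen. All 9 member symbols were found in that table; coordinates are not given because its build differs. Reads shared with near-identical copies, overlapping genes or antisense partners were not assessed. Alternatives were DESeq2 1.42.0, limma-voom (limma 3.58.1), other scaling and filters, a minimum change, leaving out each library, and a block for the replicate number. DESeq2 with a library left out or with the block was added after seeing the data.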

Additional observations from a re-analysis of the deposited data

How the results depend on the processing

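In edgeR 0 genes were called higher, 0 lower and 0 of the 9 members under each scaling, each filter (none, or 1 CPM in at least 3 libraries), the minimum absolute log2 fold change of 1 and each library left out, as in limma-voom. DESeq2 called 152 higher, 66 lower and 1 member (SERPINE2). With single libraries left out, over edgeR and DESeq2 fits together, calls ranged from 0 to 235 higher, 0 to 156 lower and 0 to 1 member, and members without overlap from 1 to 6. The labels do not say whether replicate numbers pair the libraries. Deviations from group means, across genes, correlated at 0.15, -0.11 and 0.09 for numbers 1, 2 and 3. Post-MI replicate 2 correlated best with naive replicate 3 (0.24). These correlations depend on each other, as the deviations in a group cancel out for each gene, so they cannot settle pairing. With the replicate block edgeR called 0 higher, 0 lower and 0 members (1168 genes at an unadjusted p under 0.05), and DESeq2 called 155, 62 and 0, with SERPINE2 at an adjusted p of 0.0915.

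F3, TFPI, TFPI2, THBD, PROCR and SERPINE2 kept the sign of their log2 fold change in all 19 alternatives. PLAU, whose estimate was 0.00, turned in 10: limma-voom (-0.20), the 1 CPM filter (-0.0015), the replicate block in edgeR (-0.18) and DESeq2 (-0.18), and, in both tools, without post-MI replicate 3, naive replicate 1 or naive replicate 2. S100A10 turned in limma-voom (0.037), in the replicate block (0.034 in edgeR and 0.039 in DESeq2) and without post-MI replicate 1 or naive replicate 3. Without naive replicate 1 PLAUR and ANXA2 turned, and ANXA2 also without post-MI replicate 2. With single libraries left out the log2 fold changes ran from -0.72 to 0.37 for PLAU, -1.38 to 0.10 for PLAUR, -0.17 to 0.33 for ANXA2 and -0.41 to 0.33 for S100A10. The cause was not tested. F3 had 5 to 23 counts per library and an SE of 0.47, against 0.49 for PLAU, which had 264 to 983 counts. The part of depth in the spread of F3 was not tested.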

Other observations

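Within-library ratios of raw counts, chosen after the values were seen, carry each library's balance of 2 genes without scaling, and their size between gene pairs also depends on transcript length. The log2 ratio of PLAU to PLAUR counts, urokinase over its receptor, was 0.09, 0.74 and 1.49 in post-MI replicates 1, 2 and 3 and -1.33, 0.83 and 1.43 in naive replicates 1, 2 and 3.

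The log2 ratio of PROCR to THBD counts was 0.05, 0.42 and 0.37 in post-MI replicates 1, 2 and 3, a range of less than 0.5, and 2.17, -0.02 and 1.55 in naive replicates 1, 2 and 3. TFPI2 over TFPI was -0.47, -0.01 and -0.20 with post-MI plasma and 0.34, -0.14 and 0.85 with naive plasma in the same order.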
